A study of Homo sapiens with 4 samples.

Results

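Interferon-stimulated genes were examined as a set of 42 named genes, chosen by symbol and found by identifier among the 65217 gene rows of the count table. The set was read by role: 8 sensors of viral RNA, 4 transcription factors of the STAT and IRF families, 23 effectors and 7 other induced genes. RNA was sequenced from SEM cells, a human line of KMT2A-AFF1 acute lymphoblastic leukaemia at the B-cell precursor stage, which had grown as xenografts in immunodeficient mice aged 6 to 10 weeks at transplantation. Cells were retrieved from brain (2 libraries, from the leptomeninges per the labels' protocol) or spleen (2 libraries), and no group received a drug or a gene edit. Each library combined the RNA of 5 mice after a Ficoll gradient, and replicates 1 and 2 came from 2 separate runs of the experiment. Both groups therefore share 1 cell line and a host that lacks parts of its own immune system; the mouse strain is not given in the sources used here, and the pools hide the spread between mice.

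Type I interferons bind a receptor pair on the cell surface and activate the kinases JAK1 and TYK2, which phosphorylate STAT proteins. STAT2 joins a STAT partner and IRF9 to form ISGF3, the factor that binds the interferon-stimulated response element in the promoters of these genes. The products sense foreign RNA, block translation or membrane fusion, or feed back on the receptor, and IRF1 and IRF7 extend the response to further promoters. Many of these genes also have a baseline level in blood cells without added interferon.

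The core of the response element, GAAA, then any 2 bases, then GAAA again, was searched on both strands from 250 bases before to 50 bases after the RefSeq start sites (GRCh38.p14). The table held promoters of 34 of the 42 members; TRIM22, USP18, IFIT2, OAS2, OASL, MX2, IRF7 and IFITM2 had no entry. The motif was found in 24 of the 34 genes (70.6%, 95% Wilson interval 53.8% to 83.2%), against 4.38% of the 27305 genes with a promoter in the table and 3.57% of its 35116 promoters. The match of PARP9 and that of DTX3L are the same bases, counted for each gene. The members are a chosen list, so that the interval, which takes genes as independent draws, is a description. The same core followed by a C, a longer form that overlaps it, was found in 58.8% of the members and 0.952% of all genes. Windows of 70 bases are printed for 8 members with the motif whose values in brain and spleen lay far apart or close together, so that the sequences can be set beside the levels; capitals mark the matches, and a match that reads TTTC, 2 bases and TTTC lies on the other strand. They are given 5′ to 3′ on the strand of the gene. Each window was cut around 1 match, and the promoters of IFITM1 and IFI44L hold a second match outside it. The windows are IFITM1 at chr11:313950-314019 (plus strand), IFITM3 at chr11:320876-320945 (minus), IFI44L at chr1:78620325-78620394 (plus), IFI44 at chr1:78649721-78649790 (plus), IFIT1 at chr10:89392470-89392539 (plus), EPSTI1 at chr13:42992272-42992341 (minus), ISG15 at chr1:1013340-1013409 (plus) and BST2 at chr19:17405735-17405804 (minus).
IFITM1: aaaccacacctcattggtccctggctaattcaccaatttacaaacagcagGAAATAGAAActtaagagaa
IFITM3: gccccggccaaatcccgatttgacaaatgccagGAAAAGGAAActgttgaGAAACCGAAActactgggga
IFI44L: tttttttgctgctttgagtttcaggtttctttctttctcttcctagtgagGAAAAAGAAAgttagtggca
IFI44: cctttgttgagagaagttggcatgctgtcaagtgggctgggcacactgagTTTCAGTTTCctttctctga
IFIT1: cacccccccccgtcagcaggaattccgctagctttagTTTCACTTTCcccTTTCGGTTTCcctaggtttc
EPSTI1: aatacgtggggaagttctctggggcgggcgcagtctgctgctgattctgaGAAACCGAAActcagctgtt
ISG15: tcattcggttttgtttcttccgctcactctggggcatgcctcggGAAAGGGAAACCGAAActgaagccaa
BST2: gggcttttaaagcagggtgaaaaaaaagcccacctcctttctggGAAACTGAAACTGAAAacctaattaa

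The libraries held between 26266136 and 36913437 gene counts, so that 3 counts, the limit a count of 0 allows, correspond to 0.0813 to 0.114 CPM (a gene's counts when the library is scaled to 1e6). Mouse transcripts took 2.24% and 1.45% of the estimated counts in brain and 4.31% and 6.32% in spleen. All 9 B-cell precursor markers were expressed in every library, with summed levels of 1903 to 2511 CPM. All markers are human genes, and mouse transcripts were only summed, so that mouse host cells could not be read from them. All 5 neural and all 5 erythroid markers lay under 1 CPM in every library, and 4 of 5 T-cell markers did too. The other T-cell marker, TRAC, the constant part of the T-cell receptor alpha chain, stood at 119 and 103 CPM in brain and 114 and 138 CPM in spleen. The 5 myeloid markers summed to 40.8 to 59.1 CPM. The 3 plasmacytoid dendritic markers summed to 4.11 and 3.07 CPM in brain and 1.52 and 2.30 CPM in spleen. Of these, 2 lay under 1 CPM in each library. Most of each sum was LILRA4, at 3.24 and 2.25 CPM in brain and 1.21 and 1.82 CPM in spleen (adjusted p = 0.207 by edgeR). Being human genes, they do not show whether mouse cells of that type were present. Spleen replicate 2 stood apart by base composition: genes in the lowest 20% of GC content had a median deviation of -0.39 there on the log2 scale, against 0.14 to 0.15 in the other 3 libraries. The part of host RNA and of base composition in the results below was not tested except where values are given.

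In the comparison of brain with spleen, 2 of the 42 members rose in brain and none fell (edgeR's quasi-likelihood test, adjusted p under 0.05): IFITM1, a membrane protein that blocks virus entry, and TRIM22, an antiviral ubiquitin ligase. Over all 17075 genes tested, 1.63% rose and 0.387% fell. All 42 members passed the filter on low counts. Their median log2 fold change was 0.60, with a range of -0.55 to 4.53, beside a median of 0.04 over all genes tested. Values were above 0 for 34 members (53.3% of all genes) and above 1 for 14 members, or 33.3% (5.45% of all genes). At an unadjusted p under 0.05 there were 24 members higher in brain and 1 lower, beside 10.7% and 9.94% of all genes. With the replicate number as a block, since it marks the run of the experiment, 19 members rose, or 45.2%, beside 7.48% of all genes, and none fell (3.37% of all genes). By DESeq2 10 members rose, or 23.8% (3.25% of all genes), and none fell (2.2%). Of the 19 calls, 11 held when the trend with GC content and transcript length was removed beside the block (2.65% of all genes rose), and 8 held by DESeq2 with the block (1.85%). IFITM1, TRIM22, MX1, SAMD9L, IFI44L and XAF1 held in both of these fits, and DDX60, OASL, EIF2AK2, IFIT2, RSAD2 and HERC5 in neither. The same-numbered libraries deviated almost independently of each other and the blocked fit leaves 1 residual degree of freedom a gene, so that the spread behind the 17 further calls is drawn largely from other genes. Leaving out a library changed the count to 4 members without brain replicate 1 (2.25% of all genes were called in either direction) and 13 without brain replicate 2 (3.09%). It was 26 members (21 higher, 5 lower) without spleen replicate 1, where 37.9% of all genes were called, and 18 (17 higher, 1 lower) without spleen replicate 2, where 17.3% were. The lone library left in a group is then assumed to vary like the other group. An exact permutation test of a single gene cannot go below p = 0.333 with 2 libraries against 2. The labels give separate runs of the experiment but pooled mice, so that p-values measure the spread between pools.

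The values in the 4 libraries followed one order in much of the set. In 31 members (73.8%) both brain libraries lay above both spleen libraries on the CPM scale, which 30.2% of all genes did. The opposite order was found in 3 members, IFITM3, USP18 and IFI35 (7.14%, against 26.7% of all genes), and in 8 members the groups overlapped. Within both runs of the experiment brain lay above spleen in the same number of members, 31, against 35.7% of all genes. Brain replicate 1 lay above brain replicate 2 in 40 of the 42 members, against 55.3% of all genes. It was the highest library, above brain replicate 2 and then both spleen libraries, in 29 members, or 69.0%, against 17.2% of all genes. Spleen replicate 2 lay below spleen replicate 1 in 25 members, against 50.9% of all genes. The members' median deviation from the gene's own mean was 0.47 in brain replicate 1, 0.15 in brain replicate 2, -0.20 in spleen replicate 1 and -0.43 in spleen replicate 2 on the log2 scale, where all genes had medians between -0.03 and 0.03. The median brain-to-spleen difference was 0.61 within the first run and 0.62 within the second. Fewer cells expressing a gene and less RNA per cell cannot be told apart in such bulk libraries.

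**Figure D1:**
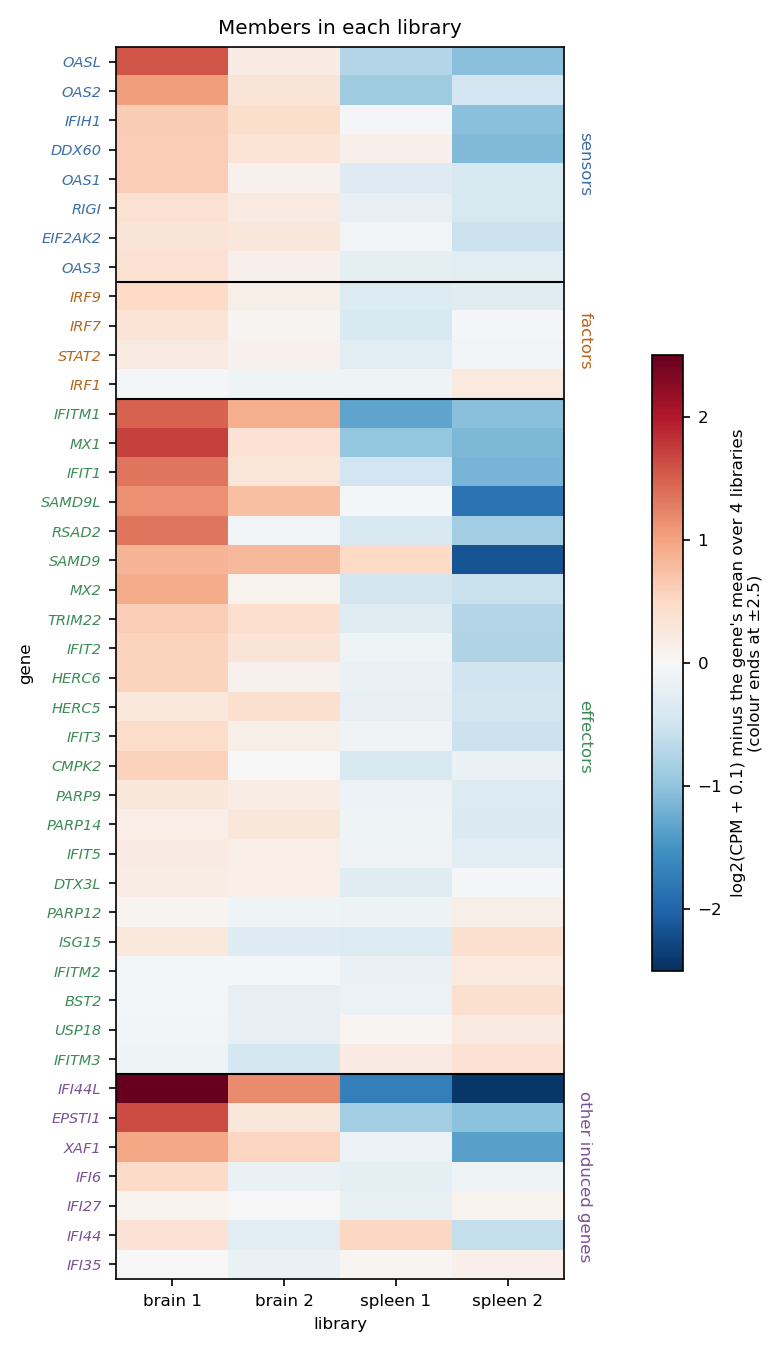
Colour shows log2(CPM + 0.1) of each of the 42 members minus the gene's mean over the 4 libraries, with genes in rows by role and libraries in columns (the scale ends at ±2.5). Most rows are red in both brain libraries and darkest in brain 1, while IFITM3, USP18 and IFI35 run the other way and SAMD9 is low in spleen 2 only.

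Sensors detect double-stranded or otherwise foreign RNA and trigger signalling or RNA decay. All 8 had higher values in both brain libraries than in both spleen libraries, as 30.2% of all genes did. Their log2 fold changes were 0.51 to 2.65 with a median of 0.80, and none of the 8 passed the test. With the replicate block 6 of the 8 rose, beside 7.48% of all genes. Of these calls 1, OAS1, held with the GC trend removed as well, and 2, IFIH1 and OAS2, held by DESeq2 with the block. OAS2, which makes the 2′-5′ oligoadenylates that activate RNase L, was at 89.6 and 54.4 CPM in brain and 23.7 and 31.3 CPM in spleen. Its 2 brain libraries differed from each other by more than its 2 spleen libraries did, and the log2 fold change of 1.39 ± 0.28 (SE) had an adjusted p of 0.0741, or 1.6e-07 with the block and 0.135 with the GC trend removed beside the block. OAS3, the long member of that family, was at 66.3 and 55.0 CPM in brain and 43.4 and 41.6 CPM in spleen (0.51 ± 0.16 on the log2 scale, adjusted p = 0.14), and with the block it did not pass either (adjusted p = 0.12). EIF2AK2, the kinase PKR that stops translation on binding double-stranded RNA, was the sensor with the highest CPM, at 140 and 135 in brain and 106 and 77.1 in spleen. Its log2 fold change was 0.58 ± 0.18, with an adjusted p of 0.133 and of 0.0286 with the block. That call was lost with the GC trend removed beside the block (0.23 on the log2 scale, adjusted p = 0.288), and DESeq2 with the block gave an adjusted p of 0.254.

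The remaining sensors were described after their values were seen. IFIH1, the sensor MDA5 of long double-stranded RNA, was at 25.0 and 21.9 CPM in brain and 15.6 and 7.68 CPM in spleen. DDX60, a helicase-like protein, was at 36.9 and 30.5 CPM in brain and 26 and 11.1 CPM in spleen. In both genes spleen replicate 2 was the lowest library by a wide margin, and without it the log2 fold change was 0.60 for IFIH1 (1.00 with it) and 0.38 for DDX60 (0.85 with it). RIGI, the sensor of short RNA with a 5′ triphosphate, did not show that gap: it was at 28.6 and 25.7 CPM in brain and 19.1 and 16.6 CPM in spleen, which differ by 0.60 ± 0.17 on the log2 scale (adjusted p = 0.114), or 0.35 with the GC trend removed. OAS1 was at 36.7 and 26.1 CPM in brain and 19.2 and 18.2 CPM in spleen (0.75 ± 0.20 on the log2 scale, adjusted p = 0.105, 0.0179 with the block and 0.224 by DESeq2 with the block). OASL lay under 1 CPM in the mean of both groups.

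The 4 factors had modest differences at the gene level. Their median log2 fold change was 0.37, none passed the test, and with the block IRF9 alone rose (7.48% of all genes did). With the GC trend removed IRF7 (0.64, adjusted p = 0.0434) and IRF9 (0.84, adjusted p = 0.0368) rose; with the block added IRF7 had an adjusted p of 0.0566. STAT2, the interferon-specific STAT of ISGF3, was at 54.8 and 50.7 CPM in brain and 39.4 and 45.2 CPM in spleen (0.32 ± 0.16 on the log2 scale, adjusted p = 0.299). Protein-coding transcripts of STAT2 held 635 and 372 estimated counts in brain and 296 and 130 in spleen, not scaled for depth. These were 31.3% and 21.5% of the gene's counts in brain and 22.8% and 11.4% in spleen, and most counts of STAT2 were given to transcripts of other classes. IRF9, its DNA-binding partner, was at 38.2 and 30.0 CPM in brain and 21.5 and 22.1 CPM in spleen. The log2 fold change was 0.64 ± 0.18 with an adjusted p of 0.11, or 0.0468 with the block and 0.325 by DESeq2 with the block. Protein-coding transcripts held 44% and 37.9% of the counts of IRF9 in brain and 34.9% and 37.0% in spleen. Its retained-intron transcripts held 49.4% to 59.2%. IRF7, the factor that amplifies interferon production, was at 53.4 and 44.3 CPM in brain and 32.2 and 41.3 CPM in spleen (0.41 ± 0.19, adjusted p = 0.261). For these 3 genes the groups did not overlap and brain was higher, as in 30.2% of all genes. IRF1, a factor induced by both interferon types, did not share that order: its 121 and 115 CPM in brain overlapped the 115 and 148 CPM in spleen, with a log2 fold change of -0.16 ± 0.16 (adjusted p = 0.613) that was 0.05 without spleen replicate 2. All 4 factors were lower in spleen replicate 1 than in spleen replicate 2, the opposite of 7 of the 8 sensors. Among all genes 50.9% had spleen replicate 2 below spleen replicate 1. The GC content was 50.5% to 66.6% in the factors and 38.5% to 54.1% in the sensors. The part of base composition in this contrast was not tested. Within the second run the factors' median difference was 0.13, against 0.60 within the first, while the sensors had 0.80 and 0.64.

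Among the effectors, the RNA levels of the IFITM genes, whose proteins block virus entry, went in different directions. IFITM1 was at 14.5 and 9.78 CPM in brain and 2.00 and 2.45 CPM in spleen, and each brain library lay well above both spleen libraries. Its mean was 12.1 ± 3.33 CPM in brain and 2.23 ± 0.32 CPM in spleen (SD, n = 2 each), and it rose by 2.45 ± 0.28 (SE) on the log2 scale with an adjusted p of 0.0075. The call held in each of the 13 alternative settings tried, with adjusted p-values up to 0.0258 and log2 fold changes of 2.13 to 2.71. IFITM3, its neighbour on chromosome 11, had the lowest log2 fold change of the set: it was at 58.9 and 47.0 CPM in brain and 73.1 and 82.0 CPM in spleen, -0.55 ± 0.17 with an adjusted p of 0.133, and -0.30 with the GC trend removed. IFITM2, the most abundant of the 3, was at 473 and 472 CPM in brain and 436 and 581 CPM in spleen (-0.11 ± 0.17, adjusted p = 0.75), and its value turned positive without spleen replicate 2 or with the GC trend removed. The ratio of IFITM1 to IFITM3 on the TPM scale, which is per length, was 0.233 and 0.215 in the brain libraries, against 0.0455 and 0.0394 in the spleen libraries. The IFITM genes are close copies of each other, and reads that match several of them were split by the authors' estimation, so that their separate levels are uncertain. BST2, the tetherin that keeps budding viruses on the cell surface, was at 75.1 and 66.7 CPM in brain and 69.9 and 101 CPM in spleen; the groups overlapped (-0.27 ± 0.20, adjusted p = 0.469), and the value turned positive, to 0.03, without spleen replicate 2.

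TRIM22 was the other member that rose. It was at 80.3 and 69.4 CPM in brain and 42.3 and 31.3 CPM in spleen, means of 74.8 ± 7.74 and 36.8 ± 7.76 CPM (SD, n = 2 each). Its groups did not overlap, and the log2 fold change was 1.02 ± 0.19 with an adjusted p of 0.0419. The call was lost with a stricter filter that asks for 1 CPM in every library (adjusted p = 0.0757). It was also lost when brain replicate 1 was left out (adjusted p = 0.163). Its protein-coding transcripts held 2461 and 1919 estimated counts in brain and 1224 and 710 in spleen, and its retained-intron transcripts 504 and 451 against 167 and 80.7, so that both classes were higher in brain.

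SAMD9 and SAMD9L are neighbours on chromosome 7 known for restricting poxviruses. SAMD9 was at 64.1, 62.5 and 50.2 CPM in brain and spleen replicate 1, and at 7.96 CPM in spleen replicate 2. The spread within spleen was therefore as large as the mean there (29.1 ± 29.9 CPM, SD, n = 2), and the log2 fold change of 1.12 ± 0.98 fell to 0.35 without spleen replicate 2 (adjusted p = 0.588 with all libraries). SAMD9L was at 42.1 and 31.9 CPM in brain and at 18.4 and 5.26 CPM in spleen (1.63 ± 0.71, adjusted p = 0.327), with an adjusted p of 2.78e-12 under the block and a log2 fold change of 1.02 without spleen replicate 2. SAMD9 has the lowest GC content of the 42 members. At the transcript level, the canonical SAMD9 transcript had 2081, 1932 and 1649 estimated counts in the other 3 libraries and none in spleen replicate 2, where the 201 counts of the gene were given to another coding transcript. A shorter coding transcript of SAMD9L likewise had 630, 494 and 228 estimated counts and none in spleen replicate 2. The split of counts between transcripts of a gene is an estimate, and its uncertainty was not measured. The SAMD9 transcripts are close in length, at 6852 and 6754 bases. Whether transcript use differed in spleen replicate 2 was not tested.

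MX1 and MX2 are GTPases that trap incoming viral nucleocapsids, RSAD2 (viperin) makes a chain-terminating nucleotide, and CMPK2, its neighbour, is a nucleotide kinase. All 4 had both brain libraries above both spleen libraries (30.2% of all genes did), with a median log2 fold change of 1.29. None passed the test, and 3 rose with the block (7.48% of all genes). MX1 was at 24.0 and 9.40 CPM in brain and 3.67 and 3.29 CPM in spleen. The spleen libraries lay close together and brain replicate 1 stood over 2-fold above brain replicate 2, and the log2 fold change of 2.26 ± 0.51 had an adjusted p of 0.117, or 2.69e-12 with the block. MX2 was at 20.5 and 11.4 CPM in brain and 7.80 and 7.32 CPM in spleen (1.08 ± 0.29, adjusted p = 0.113, 0.00145 with the block and 0.111 by DESeq2 with the block). On the per-length TPM scale the ratio of MX1 to MX2 was 1.42 in brain replicate 1 and 0.844 to 0.966 in the other 3 libraries. CMPK2 was at 11.8 and 7.85 CPM in brain and 5.98 and 6.97 CPM in spleen (0.60 ± 0.25, adjusted p = 0.232). Its protein-coding transcripts held 34.5% and 44.6% of its counts in brain and 24.2% and 25.3% in spleen. RSAD2, named after its values were seen, was at 4.43 and 1.61 CPM in brain and 1.24 and 0.871 CPM in spleen (1.5 ± 0.54, adjusted p = 0.195, and 0.00385 with the block). That call was lost with the GC trend removed beside the block (adjusted p = 0.114), and DESeq2 with the block gave an adjusted p of 0.329.

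Of the IFIT proteins, IFIT1 binds viral RNA that lacks the host's cap methylation. All 4 IFIT genes had brain above spleen in every pairing of libraries (30.2% of all genes did), with log2 fold changes of 0.37 to 1.74. None passed the test, and 2 rose with the block (7.48% of all genes). IFIT1, named here after its values were seen, was at 5.33 and 2.55 CPM in brain and 1.46 and 0.871 CPM in spleen, which differ by 1.74 ± 0.45 on the log2 scale (adjusted p = 0.104, 6.08e-05 with the block and 0.0812 by DESeq2 with the block). IFIT2 was at 5.14 and 4.36 CPM in brain and 3.22 and 2.02 CPM in spleen (0.85 ± 0.30, adjusted p = 0.167, and 0.0473 with the block). That call was lost with the GC trend removed beside the block (adjusted p = 0.15), and DESeq2 with the block gave an adjusted p of 0.48. IFIT3, which stabilises IFIT1, was at 16.5 and 13.3 CPM in brain and 11.3 and 8.27 CPM in spleen, 0.60 ± 0.22 with an adjusted p of 0.189. IFIT5 had the smallest gap of the family, with 30.1 and 29.3 CPM in brain and 24.5 and 21.5 CPM in spleen (0.37 ± 0.16, adjusted p = 0.25, and 0.07 with the GC trend removed).

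ISG15 is a ubiquitin-like protein attached to other proteins, HERC5 is its main ligase, and USP18 removes it and also blocks the interferon receptor. None of the 4 genes of this system passed the test, and they did not share a direction. ISG15 was at 12 and 8.02 CPM in brain and 7.86 and 13.3 CPM in spleen; the groups overlapped fully (-0.08 ± 0.32, adjusted p = 0.917), and the value was 0.36 without spleen replicate 2. USP18 was at 78.0 and 70.7 CPM in brain and 85.3 and 96.0 CPM in spleen, -0.29 ± 0.15 with an adjusted p of 0.316, and -0.18 with the GC trend removed. HERC5 ran the other way, with 40.9 and 44.7 CPM in brain and 29.4 and 24.7 CPM in spleen (0.66 ± 0.17, adjusted p = 0.0934, and 0.0328 with the block). HERC5 also passed with the GC trend removed (adjusted p = 0.0468), but not with the block added to that (0.0721) or by DESeq2 with the block (0.241). The PARP proteins and DTX3L modify proteins with ADP-ribose and ubiquitin. PARP14 was at 178 and 192 CPM in brain and 148 and 123 CPM in spleen (0.45 ± 0.15, adjusted p = 0.149, and 0.21 with the GC trend removed). PARP9 was at 32.8 and 30.5 against 24.4 and 21.1 CPM (0.48 ± 0.17, adjusted p = 0.165), and its partner DTX3L at 113 and 112 against 81.1 and 96.9 CPM (0.34 ± 0.15, adjusted p = 0.252, and 0.12 with the GC trend removed). These 3 showed no overlap of the groups, with brain higher as in 30.2% of all genes, and no PARP gene nor DTX3L passed with the block. The other members of both groups of genes, named after their values were seen, were HERC6 and PARP12. HERC6 was at 13.4 and 9.75 CPM in brain and 8.04 and 6.33 CPM in spleen. PARP12 had overlapping libraries between 21.4 and 25.7 CPM, and its protein-coding transcripts held 1.41% to 5.45% of its counts.

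The 7 other induced genes held the largest and one of the smallest differences of the set, and none passed the test. With the block 3 rose, beside 7.48% of all genes. IFI44L, a cytosolic protein widely used as a marker of interferon exposure, was at 22.5 and 6.53 CPM in brain and 0.789 and 0.435 CPM in spleen. Brain replicate 1 stood more than 3-fold above brain replicate 2, and both lay over 8-fold above spleen. The log2 fold change was 4.53 ± 0.88 with an adjusted p of 0.119 (1.02e-34 with the block, 0.000121 by DESeq2), and 3.38 without brain replicate 1. IFI44, its neighbour on chromosome 1, was named after its values were seen: at 12.3 and 7.88 CPM in brain and 13.6 and 6.29 CPM in spleen, it differed by 0.01 ± 0.44 on the log2 scale (adjusted p = 0.992). The per-length ratio of IFI44L to IFI44 was thus 1.02 and 0.327 in the brain libraries, against 0.0273 and 0.0147 in the spleen libraries. EPSTI1, a gene induced in epithelium by stromal cells, was at 4.03 and 1.52 CPM in brain and 0.637 and 0.554 CPM in spleen (2.21 ± 0.53, adjusted p = 0.093, 1.5e-05 with the block and 0.0946 by DESeq2 with the block). XAF1, which promotes apoptosis, was at 57.9 and 42.8 CPM in brain and 26.5 and 11.5 CPM in spleen (1.40 ± 0.46, adjusted p = 0.209, and 9.2e-09 with the block). IFI6, a mitochondrial protein, was at 16.6 and 10.6 CPM in brain and 10.1 and 11.0 CPM in spleen; brain replicate 1 alone stood out, and without it the difference was -0.003, against 0.36 with all libraries and 0.60 with the GC trend removed. IFI35 was at 16.9 and 15.0 CPM in brain and 17.7 and 18.6 CPM in spleen (-0.19 ± 0.17, adjusted p = 0.565), and its value turned positive, to 0.04, with the GC trend removed. IFI27 lay under 1 CPM in the mean of both groups.

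**Figure D2:**
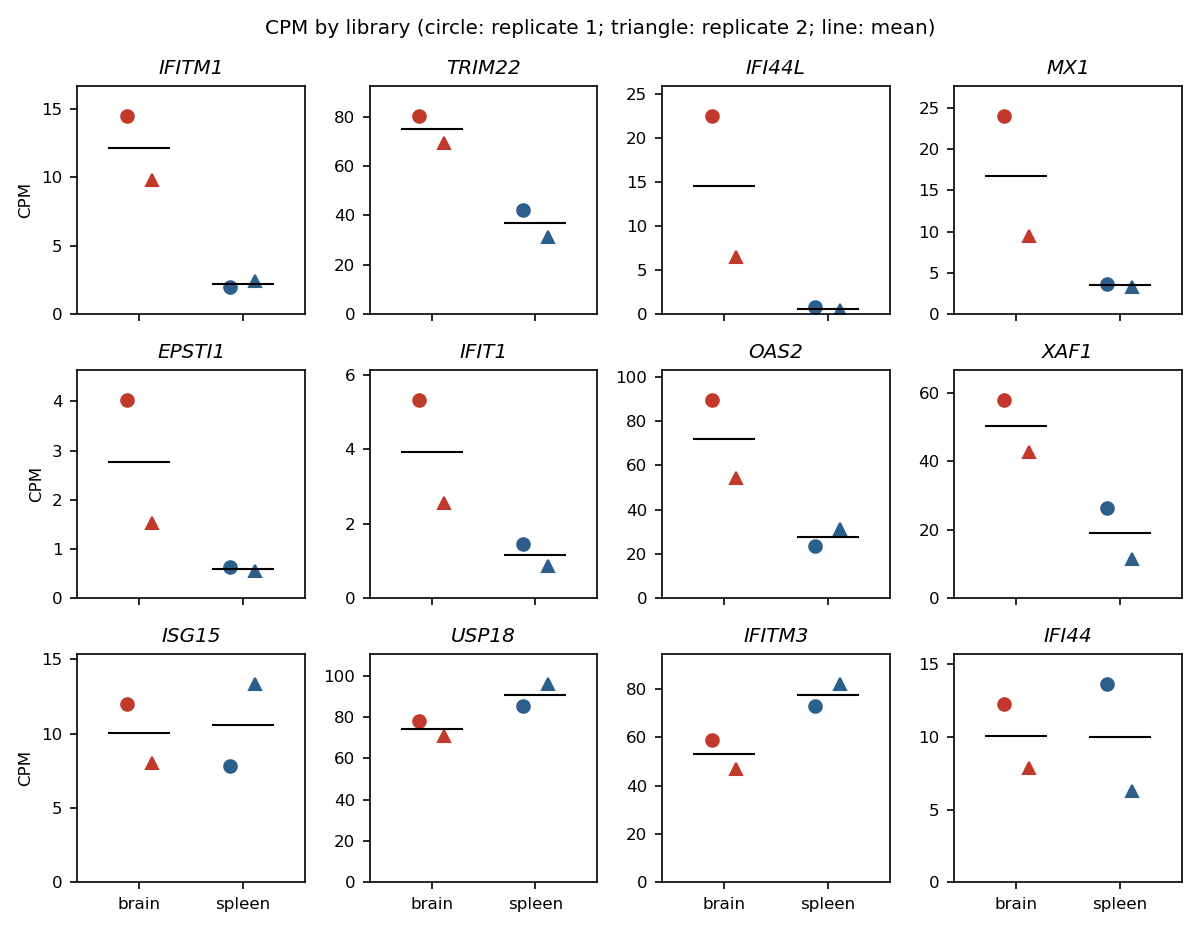
CPM (y axis, from 0) of 12 members in brain and spleen; circles are replicate 1, triangles replicate 2, and lines the mean of the 2 libraries. IFITM1, TRIM22, IFI44L, MX1, EPSTI1, IFIT1, OAS2 and XAF1 have both brain libraries above both spleen libraries, USP18 and IFITM3 have both below, and ISG15 and IFI44 overlap.

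**Figure D3:**
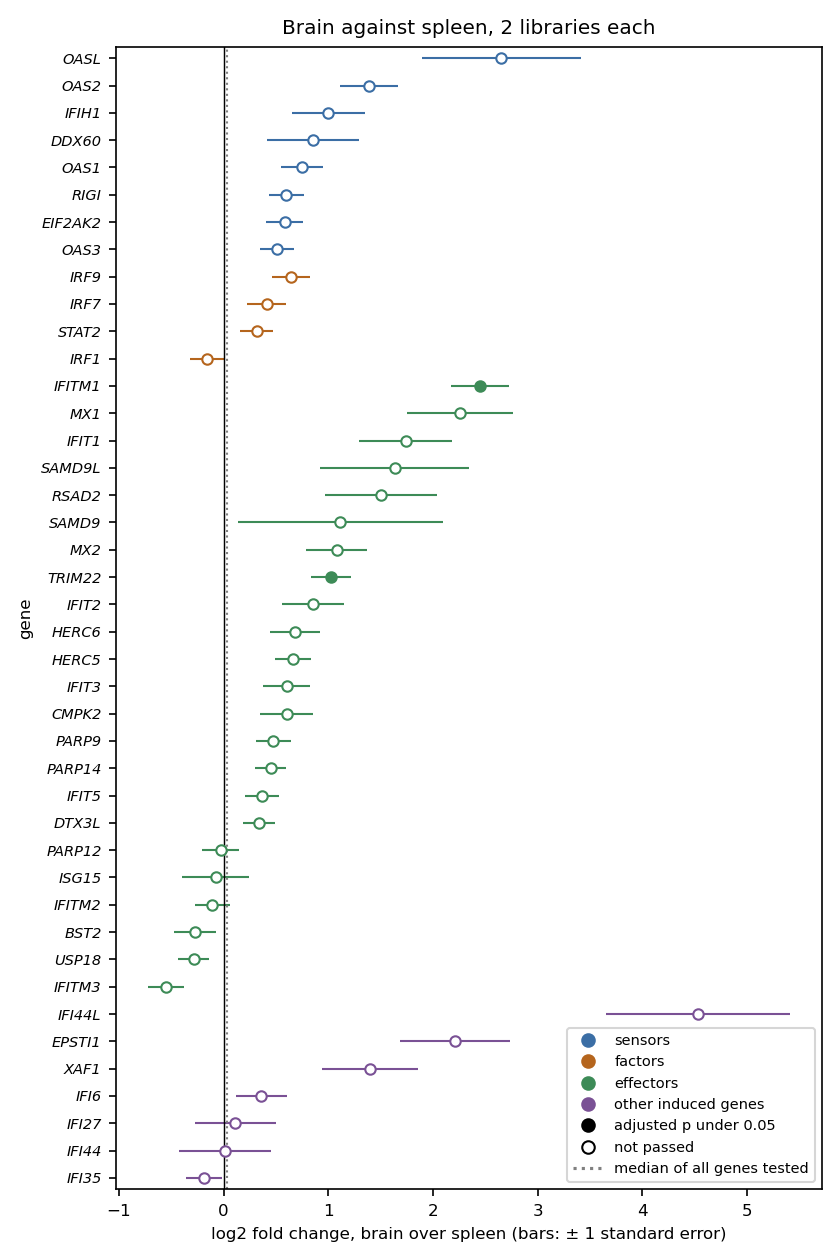
The x axis gives the log2 fold change of brain over spleen with bars of ± 1 standard error, genes in rows by role; filled points passed the test (adjusted p under 0.05) and the dotted line is the median of all genes tested, 0.04. IFITM1 and TRIM22 are the filled points, all 8 sensors lie above 0, and IFI44L has the largest value, 4.53, with a wide bar.

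Levels were compared between genes on the TPM scale, recomputed over human transcripts, for the 39 members whose transcripts carried the gene's counts (ISG15, IFIH1 and IRF7 were left out). IFITM2 was the highest at 1291 ± 52.1 TPM in brain and 1234 ± 162 in spleen (SD, n = 2 each). IFITM3 (117 ± 14.3 and 152 ± 2.16), BST2 (115 ± 5.37 and 126 ± 23.8) and IRF1 (104 ± 1.19 and 95.2 ± 2.31) followed, and IFITM3 and BST2 did not differ beyond their spread in brain. None of these 4 most abundant members passed the test, and in IFITM2, BST2 and IRF1 the CPM of the groups overlapped. On the TPM scale IRF1 did not overlap, at 105 and 103 in brain and 93.6 and 96.9 in spleen. PARP12, IFI6 and IFI27 overlapped on CPM but lay higher in brain on TPM without overlap. IFI35, lower in brain on CPM, overlapped on TPM. TRIM22 was at 49.0 ± 4.75 TPM in brain and 19.4 ± 6.40 in spleen, and IFITM1 at 26.2 ± 4.69 and 6.44 ± 0.57. IFI44L stood at 10.0 ± 8.76 TPM in brain, where its spread was nearly its mean, and at 0.316 ± 0.265 in spleen.

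Base composition moved with the difference between the 2 spleen libraries. Across the 42 members, GC content of the transcripts and the log2 ratio of spleen replicate 2 to replicate 1 had a Spearman correlation of 0.81, and across 16761 genes it was 0.53; the points share the same libraries. For the ratio of the 2 brain libraries the correlation was 0.06 across the members. With the brain-to-spleen difference it was -0.46 across the members and -0.25 across all genes. The 9 members in the lowest 20% of GC content (up to 41.1%) had a median difference of 0.85 on the log2 scale, and 0.38 without spleen replicate 2. The other 33 members had 0.60, and 0.54 without that library. With the trend of GC content and length removed from each library the median of all 42 was 0.60 and 5 members rose (2.72% of all genes), IFITM1, TRIM22, IRF7, IRF9 and HERC5, and 11 did with the replicate block added. Single members moved more than the median did. With the trend removed the log2 value of 9 members came nearer to 0 by over 1.5 times (RIGI, EIF2AK2, IRF1, IFIT5, IFITM3, BST2, USP18, PARP14 and DTX3L), that of 4 lay farther from 0 by as much (IRF7, IFI6, IFI27 and IFI44), 4 changed sign (IFITM2, ISG15, PARP12 and IFI35), and 25 stayed within 1.5 times.

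**Figure D4:**
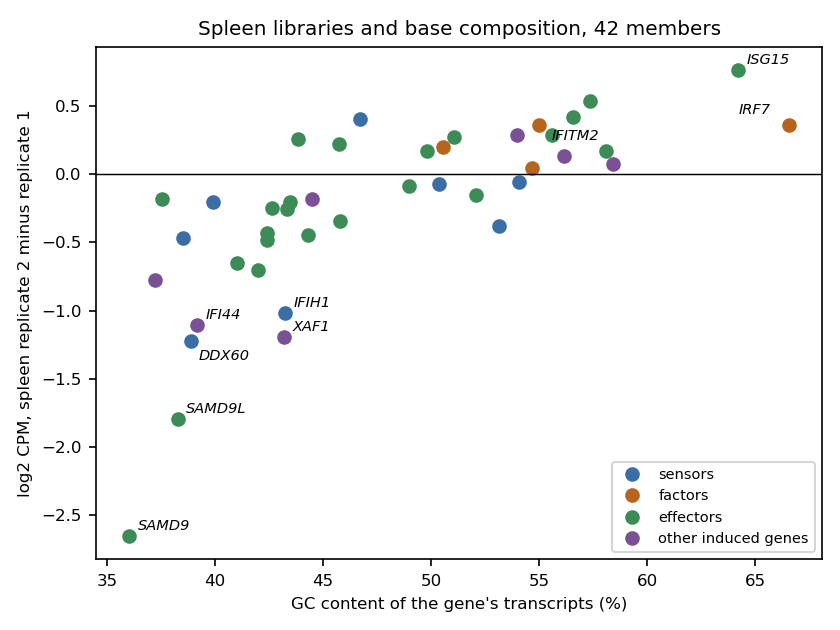
Each point is 1 of the 42 members; the x axis is the GC content of its transcripts (%) and the y axis its log2 CPM in spleen replicate 2 minus replicate 1, coloured by role. Points below 0 are mostly members with low GC content, led by SAMD9 and SAMD9L, and ISG15 and IRF7 at the right lie above 0.

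Differences were then set beside the presence of the response element. Among the 24 members with the motif the median log2 fold change was 0.55 (20 above 0) and the 10 members with a promoter entry but no motif 0.62 (8 above 0). Outside the set, 448 tested genes with the motif had a median of 0.09 and 11008 without it 0.02. A match is a description of the letters in the window, and binding was not measured.

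Other genes of the interferon pathway were read from a list of 75, of which 62 were tested, and 1 rose and none fell. With the block 9 rose, or 14.5%, beside 7.48% of all genes. In 43.5% of the tested list both brain libraries lay above both spleen libraries, against 30.2% of all genes. The gene that rose was IRF4, a lymphoid member of the IRF family needed for plasma cells and for immunoglobulin switching. It was at 30.1 and 25.8 CPM in brain and 5.55 and 6.45 CPM in spleen, and its log2 fold change of 2.22 ± 0.19 had an adjusted p of 0.00244. The share of the list that rose without the block, 1.61% of the genes tested, is near the background of 1.63%, and the list's median was 0.19. The other IRFs of the list did not pass: IRF8 was at 201 and 204 CPM in brain and 218 and 252 CPM in spleen (-0.21 ± 0.14, adjusted p = 0.412), and IRF3, the factor that starts interferon production, had -0.26 ± 0.16 (adjusted p = 0.381).

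None of the 10 human interferon genes listed as ligands reached the filter. IFNW1 had 2 to 6 counts in each library, IFNB1 had 0 to 2, IFNE had at most 1, and the other 7 had 0. Mouse interferon genes were not analysed here, since mouse transcripts were only summed. The 6 receptor chains had a median difference of 0.08 and none passed; IFNAR1, the chain shared by all type I interferons, was at 68.8 and 63.9 CPM in brain and 54.5 and 49.2 CPM in spleen (0.35 ± 0.15, adjusted p = 0.234). Of the 5 kinases and STATs none passed, with a median of 0.45; JAK1 was at 205 and 197 CPM in brain and 161 and 154 CPM in spleen (0.35 ± 0.13, adjusted p = 0.188), while TYK2 had 0.06 ± 0.14 (adjusted p = 0.849). None of the 14 adaptors and receptors of nucleic acid sensing passed, and with the block TLR7, TLR9 and DHX58 rose (named, like the other pathway genes called with the block, after their values were seen). MYD88 and UNC93B1, the most abundant of them, had -0.05 ± 0.14 and -0.08 ± 0.16, and both turned positive with the GC trend removed. The 10 inhibitors (median 0.14) and the 2 further enzymes of the ISG15 pathway, UBA7 and UBE2L6, held no call. With the block the inhibitor SAMHD1, which degrades nucleotides, rose. Of the 23 other targets 20 were tested and none passed; their median was 0.33, and GBP2, ISG20, SP100 and LGALS3BP rose with the block. Of the 9 pathway genes called with the block, IRF4 and LGALS3BP were also called both by DESeq2 with the block and with the GC trend removed beside the block, and DHX58, TLR7, TLR9 and SAMHD1 by neither.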

How the data were processed

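RNA of 4 libraries was sequenced as stranded poly(A) libraries, per the labels' protocols. The submitters' processing notes name bcl2fastq 1.8.4, cutadapt 1.5, kallisto 0.42.4 and DESeq2, with the builds GRCh38 and GRCm38; the sources used here do not give the settings. Per human gene, the authors deposited estimated counts rounded to whole numbers, without normalisation, and their transcript files hold estimated counts and TPM over human and mouse transcripts together. Both tables of the series hold 1 column of no sample, 2 in all, which were not used. Genes were named from GENCODE release 44 (56322 of 65217 identifiers; at least 99.7% of counts).

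Brain and spleen were compared with edgeR 4.0.16 (R 4.3.3; quasi-likelihood test, robust fit, TMM factors, filterByExpr), and p-values were adjusted by Benjamini-Hochberg over all 17075 genes. Levels are CPM with TMM factors. TPM was rescaled over human transcripts, and given where matched transcripts held the gene's count within 10%. ISG15, IFIH1 and IRF7 did not reach this, and their GC content came from the canonical transcript, a choice made after seeing the data. Alternatives were other scaling, filters, DESeq2 1.42.0, the replicate block, transcript sums, a GC and length trend taken out, and leaving out each library. The labels say that a replicate number marks an independent occasion, so it pairs libraries; over 17075 genes the deviations of same-numbered libraries correlated at 0.03 (Pearson) and -0.01 (Spearman). The members and lists were chosen with earlier results of these data known. Named were members that passed, the 3 of highest CPM in each role list, the 4 largest differences in each direction among members with a mean of at least 1 CPM in the higher group, and in each pathway list the genes that passed and the 2 of highest CPM; others are marked as named after their values were seen. The scripts were tested on simulated data, where the share of false calls exceeded the threshold. The simulation covered the edgeR fit without the block, with and without the GC and length trend removed. The blocked fits, DESeq2 and the fits without a library were not tested in this way. Calls, above all those near the threshold such as that of TRIM22, may therefore be less certain than their adjusted p states.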

Additional observations from a re-analysis of the deposited data

How the results depend on the processing

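Over 13 alternatives, 517 of the 538 values of the 42 members kept their direction; 33 members had 1 direction in every setting, 31 of them above 0. The members' median log2 fold change stayed between 0.47 and 0.72. The counts of calls did not hold. The number of members called was 10 by DESeq2, 20 without a filter, 1 with the stricter filter (36 members tested), 5 with the GC and length trend removed, and 4 to 26 when a library was left out. Pathway genes called were 5, 12, 1 and 5 in the first 4 of these, and 1 to 28 without a library. Over all genes 931 (555 higher), 2123, 124 and 641 were called, and 404 to 6807 without a library. RLE factors and transcript sums changed these counts little. Pairing libraries by the replicate block called 19 members, 9 pathway genes and 1853 genes in all; with DESeq2 the block gave 8 members and 2 pathway genes, and with the trend removed 11 members, 6 pathway genes and 594 genes. The cause of these changes was not tested.

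Some values reversed. IFI44 was at -0.011 with RLE factors, -0.0081 by DESeq2 and -0.42 to 0.63 without a library. With the trend removed, and again with the block added, IFITM2 was at 0.15 and 0.15, ISG15 at 0.24 and 0.23, PARP12 at 0.035 and 0.034, IFI35 at 0.043 and 0.044, IFNGR2 at 0.070 and 0.076, MYD88 at 0.0018 and 0.0018, UNC93B1 at 0.11 and 0.11, ADAR at -0.023 and -0.020, SHISA5 at 0.027 and 0.024, and LAP3 at 0.041 and 0.043. Leaving out a library gave -0.0026 to 0.65 for IFI6, -0.46 to 0.36 for ISG15, -0.21 to 0.12 for PARP12, -0.24 to 0.061 for UNC93B1, -0.15 to 0.032 for LAP3, -0.093 to 0.28 for IFI27, -0.055 to 0.13 for TYK2, -0.066 to 0.29 for ADAR, -0.38 to 0.047 for IRF1, -0.35 to 0.13 for IFITM2, -0.57 to 0.032 for BST2, -0.35 to 0.17 for IFNGR2, -0.20 to 0.059 for MYD88 and -0.41 to 0.068 for SHISA5. A looser motif that lacks the last A was found in 73.5% of the members with a promoter and 9.86% of all genes. Depth limits genes under 1 CPM, such as OASL and IFI27.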
